A study of Mus musculus with 21 samples.

Results

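Epiblast stem cells kept in a medium called AF were compared with the uncultured epiblast of embryonic day 6.0 (E6.0) across all expressed genes. The comparison took the 3 AF libraries and the 3 E6.0 libraries out of 21 RNA-seq libraries in the series, and tested 16614 of the 33861 genes in the count table. The AF libraries each came from 1000 cultured cells, collected at passages 14, 15 and 16, and carry E14 in their descriptions, a name used for mouse embryonic stem cell lines. Their cell type label reads EpiSCs, the epiblast stem cells; neither the contents of AF medium nor the derivation of the cells is given. The E6.0 libraries were each made from the epiblast of 1 embryo, and a second label field calls the same samples E6.5. Neither a genotype, a mouse strain nor the sex of the embryos is given. The other groups used here are AFX and FS. AFX libraries are also labelled EpiSCs and E14, from cells kept in a medium called AFX at passages 14, 15 and 16 (3 libraries), and FS libraries are from 2 lines of formative stem cells kept in a medium called A3XR (3 libraries each). The remaining libraries are epiblasts of earlier stages.

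The epiblast is the layer of the implanting embryo that gives rise to all tissues of the body. Its cells pass from a naive state, through a formative phase after implantation, to a primed state in which NODAL, BMP and WNT signals start the primitive streak. EpiSCs are known as the cultured counterpart of the primed epiblast. They keep POU5F1 and SOX2, depend on activin or NODAL and on FGF signalling, and can show genes of the early streak and endoderm.

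The AF libraries are 3 passages of cells with 1 name and not 3 derivations, so p-values rest on the spread between passages and between embryos, pooled over the 7 groups of the fit, and not on a spread between derivations. Culture, line and strain cannot be told apart in this comparison, because each differs or may differ between the groups. The labels used here give no sex, and no term for it was fitted. In bulk RNA, fewer cells of a type and less RNA per cell cannot be told apart either. Total counts ran from 7768822 to 10960885 in AF and from 7847469 to 13006656 in E6.0, so that 3 counts, taken as the detection floor, equal 0.264 to 0.371 and 0.260 to 0.394 CPM, the depth-scaled count used throughout. Loci of ribosomal RNA type took 25.4% to 28.4% of AF counts and 22.2% to 27.2% of E6.0 counts. The AF library of passage 15 stood apart. Among 8726 genes whose AF mean was 10 CPM or more, 194 were over 2-fold above both other passages in it and 133 were over 2-fold below both, against 0 and 2 for passage 14 and 3 and 20 for passage 16. Xist and the Y-linked genes put epiblast 1 apart from epiblasts 2 and 3, as described with the sex-linked genes. Pluripotency markers were detected, but all groups of the series share them, so their detection does not separate cultured cells from the embryo or 1 stage from another. Pou5f1, Sox2, Nanog and Lin28a were detected in all 6 libraries, and the 16 core pluripotency genes summed to 2133 to 3245 CPM in AF and 4000 to 4488 CPM in E6.0. In this sum no AF, AFX or FS library reached any epiblast of the series.

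AF cells differed from the E6.0 epiblast in 6156 of 16614 genes (37.1%) at an adjusted p under 0.05 in edgeR's quasi-likelihood test with Benjamini-Hochberg adjustment. Of these, 3160 (19%) were higher and 2996 (18%) lower in AF cells. At a fold of at least 2, 3264 genes (19.6%) passed and the split was uneven, with 2358 genes (14.2%) higher and 906 (5.45%) lower. The median log2 fold change over all genes was 0.08, and it moved with the level of the gene. Among the 1758 genes of at least 100 CPM, 165 were higher and 997 lower, with a median of -0.39. Among the 5728 genes of 1 to 10 CPM, 1377 were higher and 435 lower, with a median of 0.45. Genes that are low in 1 group passed the expression filter through the libraries in which they were high, so the members tested of any list below are not all of its members. Without the passage 15 library, 4680 genes passed, 2353 higher and 2327 lower. Log2 profiles of AF libraries correlated with those of E6.0 epiblasts at a median Pearson r of 0.900 over the 9 pairs of libraries, with E5.5 at 0.872 and with E5.0 at 0.828. These are correlations across genes, which are not independent replicates. In the paragraphs that follow, a fold change given without a p-value belongs to a gene that passed this threshold in the same test.

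**Figure D1:**
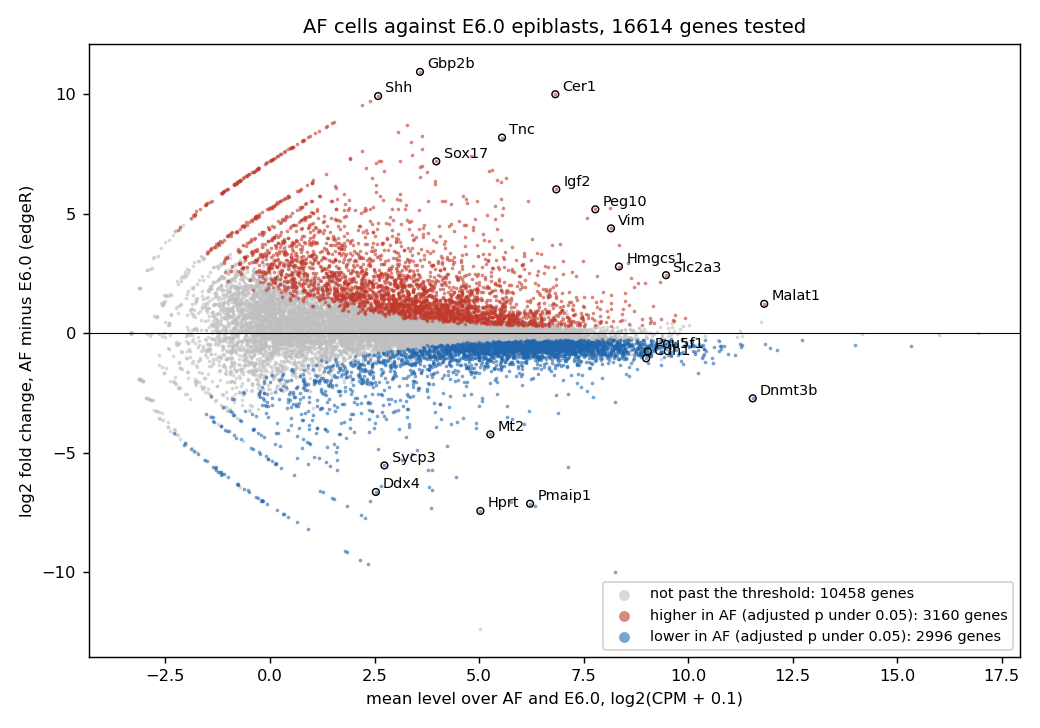
Each point is 1 of the 16614 genes tested; the x axis is the mean level in the 6 libraries, log2(CPM + 0.1), and the y axis the log2 fold change of AF minus E6.0. Red genes (3160) were higher and blue genes (2996) lower at an adjusted p under 0.05, and abundant genes lie mostly below 0 while Cer1, Tnc and Vim stand far above it.

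The genes that rose most included a secreted NODAL and BMP antagonist and several matrix, membrane and cytoskeletal genes that were near the detection floor in the embryo. Values are given in the order of passages 14, 15 and 16 and of embryos 1, 2 and 3, and ± after a fold change is its standard error. Cer1 (chr4:82881751-82885148, minus strand, GRCm38), which encodes the antagonist CERBERUS, was at 211, 209 and 259 CPM in AF cells against 0.263, 0.173 and 0.213 CPM in epiblasts. All 3 epiblasts were under the floor, so the change is a bound (at least 696-fold higher, adjusted p = 0.000393). Tnc, the matrix glycoprotein tenascin C, was at 101, 75.4 and 104 CPM in AF cells against 0.131, 0.606 and 0.107 CPM in epiblasts (log2 fold change 8.18 ± 0.94, adjusted p = 6.37e-06). Without epiblast 2 the other epiblasts were under the floor, and Tnc was at least 261-fold higher. Gbp2b, a guanylate-binding protein of the interferon response with close paralogs, was at 21, 14.1 and 36.4 CPM in AF cells and at 0 in every epiblast (at least 73.4-fold higher). Its mean was 0.656 CPM in AFX and lower still in all other groups, so it was tested through its AF counts, and its direction is only described. Shh, the hedgehog ligand, was at 11.6, 16.6 and 7.25 CPM in AF cells and at 0 in every epiblast (at least 36.4-fold higher, adjusted p = 0.019). The Shh call was lost without passage 15, epiblast 2 or epiblast 3, with adjusted p of 0.0567, 0.0547 and 0.0521. Emp1, Anxa1, Myof, Capn6, Pga5, Ahnak2, Sfrp5 and Slc15a2 complete the 12 genes with the greatest fold among those of at least 10 CPM without overlap. The dipeptide transporter gene Slc15a2 was at 9.51, 14.97 and 11.5 CPM in AF cells against 0, 0.173 and 0 CPM in epiblasts (at least 36.96-fold higher, adjusted p = 8.09e-07). Passage 15 carried the highest value of several of them, such as the calpain gene Capn6 at 4.08, 45.4 and 11.4 CPM, the pepsinogen gene Pga5 at 11.4, 54.1 and 8.36 CPM and the WNT antagonist gene Sfrp5 at 5.93, 26.9 and 4.37 CPM. Every epiblast was at 3 counts or fewer for these 3 genes. Capn6 was at least 62.6-fold higher, Pga5 at least 75.8-fold higher and Sfrp5 at least 38.1-fold higher in AF cells, and without passage 15 these bounds were at least 23.9-fold, at least 30.4-fold and at least 15.9-fold, with all 3 past the threshold.

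By absolute difference in CPM, the 6 genes that rose most were Malat1, Slc2a3, Scd2, Tpm1, Amot and Peg3. The nuclear RNA Malat1 was at 3607, 7284 and 4305 CPM in AF cells against 3166, 1697 and 1634 CPM in epiblasts (log2 fold change 1.23 ± 0.29, adjusted p = 0.00383). Slc2a3, the high-affinity glucose transporter GLUT3, was at 709, 2256 and 625 CPM in AF cells against 229, 244 and 196 CPM in epiblasts, and passage 15 was over 3 times as high as either other passage (log2 fold change 2.42 ± 0.44, adjusted p = 0.000552). Its log2 fold change without passage 15 was 1.58. The angiomotin gene Amot, whose product binds YAP, was at 537, 813 and 641 CPM in AF cells against 79.4, 109 and 74.1 CPM in epiblasts (log2 fold change 2.92 ± 0.60, adjusted p = 0.00163). The tropomyosin gene Tpm1 was at 565, 1235 and 649 CPM in AF cells against 216, 172 and 188 CPM in epiblasts (log2 fold change 2.09 ± 0.32). All 4 genes were without overlap.

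Among the genes that fell most were a purine salvage enzyme, a pro-apoptotic BH3 gene and several germ line genes. Hprt (chrX:52988137-53021659, plus strand, GRCm38), the salvage enzyme for hypoxanthine and guanine, was at 0.247, 0.176 and 0.6504 CPM in AF cells against 58.9, 69.2 and 66.4 CPM in epiblasts (log2 fold change -7.43 ± 0.45, adjusted p = 6.55e-10). It was also low in AFX (0.549 ± 0.398 CPM, SD, n = 3) and was present in the FS lines at 70.9 ± 12.9 CPM and 64.5 ± 2.72 CPM. E14 sublines without Hprt are in wide use, and the labels do not say which subline this is. Pmaip1, the p53-responsive gene of NOXA, was at 1.98, 0.793 and 0.558 CPM in AF cells against 139, 157 and 147 CPM in epiblasts (log2 fold change -7.13 ± 0.38, adjusted p = 4.08e-11). Ap1m2, the epithelial sorting adaptor, was at 1.73, 2.03 and 0.372 CPM in AF cells against 37.2, 33.9 and 36.2 CPM in epiblasts (log2 fold change -4.7 ± 0.41, adjusted p = 3.63e-08). The tau kinase gene Ttbk1 was at 0.494, 0.616 and 0.6504 CPM in AF cells against 18.3, 22.1 and 20.5 CPM in epiblasts (log2 fold change -5.07 ± 0.61). The 4 genes so far varied little among the epiblasts. The synaptic scaffold gene Dlg2 was at 0.247, 0.0881 and 0.0929 CPM in AF cells against 10.4, 18.02 and 8.42 CPM in epiblasts (at least 40.3-fold lower). Dlg2 averaged 2.43 ± 2.15 CPM (SD) in E5.5 and 0.166 CPM or less in E5.0, AFX and FS. It was thus tested through its epiblast counts, and its direction is only described. A3galt2, a glycosyltransferase gene, varied among the embryos at 0.494, 0 and 1.02 CPM in AF cells against 13.7, 15.2 and 52.01 CPM in epiblasts (log2 fold change -5.72 ± 0.73). Without epiblast 3 the log2 fold change of A3galt2 was -4.82, and without passages 15 and 16 in turn it was -5.08 and -6.93. Without passage 16 both other AF libraries were under the floor, and Hprt was at least 204-fold lower. Leaving out passage 14 moved Pmaip1 to -7.74. The other genes of these 12 were Ddx4, Sycp3, Rnf17, Tuba3a, Dppa4 and Fosb. By absolute difference in CPM, Dnmt3b, Ncl, Hsp90aa1, Rplp0, Pabpc1 and Eef1a1 fell most. Rplp0 (many retrocopies, so its count is uncertain) was at 598, 567 and 568 CPM in AF cells against 1832, 1775 and 1929 CPM in epiblasts (log2 fold change -1.68 ± 0.08).

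Core pluripotency genes were mostly present at reduced levels in AF cells: of 16 listed and tested, 10 were lower and 1 higher, with a median log2 fold change of -0.82. Pou5f1, the OCT4 gene, was at 456, 304 and 405 CPM in AF cells against 623, 644 and 719 CPM in epiblasts (log2 fold change -0.77 ± 0.14, adjusted p = 0.000152). Sall4 was at 330.4, 212 and 396 CPM in AF cells against 598, 578 and 613 CPM in epiblasts (log2 fold change -0.93 ± 0.16, adjusted p = 0.00011). The RNA-binding protein gene Lin28a was at 409, 345 and 417 CPM in AF cells against 638, 740.1 and 758 CPM in epiblasts (log2 fold change -0.87 ± 0.12, adjusted p = 8.39e-06). For these 3 genes no AF library reached any epiblast. Sox2 was at 37.7, 22.4 and 40.6 CPM in AF cells against 50.3, 60.1 and 73.1 CPM in epiblasts (log2 fold change -0.87 ± 0.26), and its call was lost without passage 15 (adjusted p = 0.0837) or without epiblast 3 (adjusted p = 0.0644). Nanog did not pass the test, with 54.5, 51.7 and 48.1 CPM in AF cells against 36.9, 44.6 and 28.6 CPM in epiblasts (log2 fold change 0.48 ± 0.50, adjusted p = 0.482). All AF libraries lay above all epiblasts for Nanog, and it passed where the 6 libraries were fitted alone (adjusted p = 0.0391). Dppa4, a chromatin gene of early pluripotent cells, was nearly silent at 0.247, 0.176 and 0.836 CPM in AF cells against 15.1, 16.1 and 20.4 CPM in epiblasts (log2 fold change -5.29 ± 0.61). Without passage 16 both other AF libraries were under the floor, and Dppa4 was at least 54.2-fold lower.

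Naive pluripotency genes showed no common direction: of 17 tested (19 listed), 4 were higher and 2 lower, with a median of 0.18. Klf5 was at 25.4, 38.3 and 25.7 CPM in AF cells against 5.65, 6.06 and 6.07 CPM in epiblasts (log2 fold change 2.33 ± 0.47, adjusted p = 0.000579). Tfcp2l1 was at 5.68, 15.1 and 7.62 CPM in AF cells against 2.103, 0.693 and 1.81 CPM in epiblasts (log2 fold change 2.65 ± 0.57, adjusted p = 0.000922). Both encode transcription factors of the naive state, and for both genes every AF library exceeded every epiblast. Dppa5a, another naive marker, was lower at 0.865, 0.176 and 1.95 CPM in AF cells against 8.81, 9.62 and 10.6 CPM in epiblasts (log2 fold change -3.27 ± 0.43, adjusted p = 9.34e-06; -4.33 without passage 16). Fgf4, the autocrine FGF of the early epiblast, was at 7.904, 8.102 and 7.25 CPM in AF cells against 17.4, 16.9 and 26.5 CPM in epiblasts (log2 fold change -1.39 ± 0.25).

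Formative and postimplantation epiblast genes were mostly lower, with 17 of 23 lower and 2 higher and a median of -1.06. Pou3f1, the OCT6 gene of the postimplantation epiblast, was at 64.7, 47.1 and 55.3 CPM in AF cells against 111, 159 and 177 CPM in epiblasts (log2 fold change -1.42 ± 0.18, adjusted p = 4.12e-06). Etv5, an ETS factor downstream of FGF, was at 137, 103 and 129 CPM in AF cells against 278, 279.6 and 330.2 CPM in epiblasts (log2 fold change -1.27 ± 0.18, adjusted p = 1.38e-05). In both genes all AF libraries lay below all epiblasts. The zinc finger gene Sall2 was at 52.98, 49.3 and 53.6 CPM in AF cells against 179, 207 and 225 CPM in epiblasts (log2 fold change -1.97 ± 0.17, adjusted p = 1.01e-08). The epithelial factor Grhl2 was at 18.4, 16.9 and 19.2 CPM in AF cells against 70.2, 60.2 and 70.2 CPM in epiblasts (log2 fold change -1.88 ± 0.17). Otx2, the factor that directs naive cells into the formative state, was at 57.9, 88.8 and 78.4 CPM in AF cells against 109, 133 and 137 CPM in epiblasts (log2 fold change -0.75 ± 0.24). The Otx2 call was lost without passage 14, epiblast 2 or epiblast 3, with adjusted p of 0.088, 0.056 and 0.0637. Fgf5, the usual marker of this stage, did not pass, with 125, 95.7 and 187 CPM in AF cells against 94.1, 106 and 96.3 CPM in epiblasts (log2 fold change 0.46 ± 0.24, adjusted p = 0.145; adjusted p = 0.016 with no filter on low counts). One of the 2 higher members was Cdh2, the N-cadherin gene, described with the other cadherins.

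The de novo DNA methyltransferase genes fell. Dnmt3b was at 960.2, 549 and 849 CPM in AF cells against 4533, 5324 and 5727 CPM in epiblasts (log2 fold change -2.72 ± 0.20, adjusted p = 8.12e-09). Dnmt3a was at 202, 156 and 157 CPM in AF cells against 504, 528 and 653 CPM in epiblasts (log2 fold change -1.71 ± 0.14, adjusted p = 8.53e-09). Their catalytically inactive partner Dnmt3l was at 0.618, 0.793 and 4.27 CPM in AF cells against 9.86, 16.03 and 26.96 CPM in epiblasts (log2 fold change -3.17 ± 0.60, adjusted p = 0.000723; -4.6 without passage 16). No AF library reached the lowest epiblast for any of the 3 genes. The maintenance enzyme Dnmt1 and its cofactor Uhrf1 also fell. Dnmt1 was at 384, 299.9 and 336 CPM in AF cells against 452, 496 and 509.8 CPM in epiblasts (log2 fold change -0.52 ± 0.10). Uhrf1 was at 335, 228 and 342 CPM in AF cells against 463, 516 and 504 CPM in epiblasts (log2 fold change -0.71 ± 0.13). Tet1 and Tet2 encode enzymes that oxidise methylcytosine, and they moved in opposite directions. Tet1 was at 231, 209 and 190.02 CPM in AF cells against 319, 309.98 and 346 CPM in epiblasts (log2 fold change -0.63 ± 0.10). Tet2 was at 22.1, 40.9 and 18.9 CPM in AF cells against 5.92, 3.73 and 5.86 CPM in epiblasts (log2 fold change 2.41 ± 0.61). Zfp57, which protects imprints through TRIM28, was higher at 44.2, 59.9 and 47.3 CPM in AF cells against 7.36, 6.15 and 8.1 CPM in epiblasts (log2 fold change 2.81 ± 0.24). Over the 18 DNA methylation enzymes and cofactors tested (20 listed), 10 were lower and 4 higher, with a median of -0.49. The transcript level of Dnmt3b was also lower in AF than in AFX (1235 ± 150.3 CPM; log2 fold change -0.65 ± 0.19, adjusted p = 0.0344), and this call was lost without AF passage 15 or 16 (adjusted p of 0.174 and 0.0635) or AFX passage 14 or 16 (0.103 and 0.124).

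**Figure D2:**
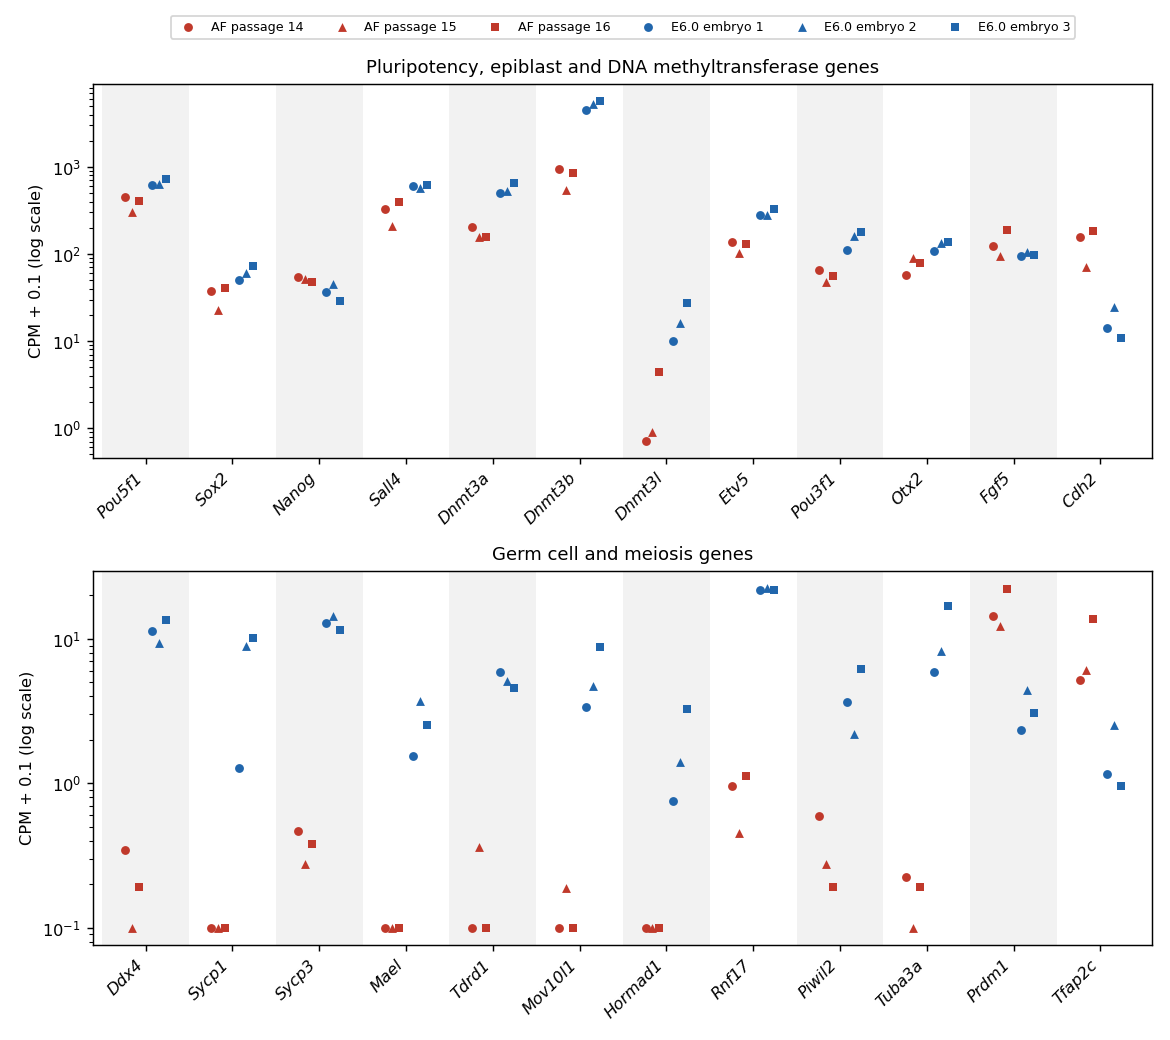
Points are CPM + 0.1 on a log axis for each of the 3 AF passages (red) and the 3 E6.0 epiblasts (blue), for pluripotency, epiblast and DNA methyltransferase genes (top) and germ cell genes (bottom). The AF points of Dnmt3a, Dnmt3b and Dnmt3l lie below all epiblasts, and Ddx4, Sycp1, Mael and Tdrd1 lie at or near 0 in all AF libraries.

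Of 24 germ cell and meiosis genes tested (33 listed), 15 were lower and 2 higher, with a median of -3.92. Of these, 13 were at 3 counts or fewer in every AF library and were tested through groups where they are higher, so the filter set their direction, the median is only a description, and their bounds are given with no p. Of the other 11, 4 were lower and 2 higher. In the soma such genes are known to be held silent by promoter DNA methylation and by repressors that include an atypical Polycomb complex, whose MGA and MAX subunits bind the E-box CACGTG. The hexamer reads the same on both strands. It was searched in the 250 bases before the RefSeq start sites (GRCm38.p6). It occurred in 1056 of 10825 tested genes that have a promoter sequence (9.76%), and in 11 of 20 germ cell genes, of which 9 were among the 13 lower ones with a sequence. A match is a description of these letters and shows no binding. The stretches around the hexamer (capitals) are shown for 5 of the lower genes, so that its place before each start can be read. The hexamer starts 223 bases before the start site in Mael, 93 in Slc25a31, 57 and 20 in Hormad1, 94 in Sycp1 and 246 in Mov10l1. The sequences are RefSeq's.
Mael, chr1:166238922-166238994, minus strand: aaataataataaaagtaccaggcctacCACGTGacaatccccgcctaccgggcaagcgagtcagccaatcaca
Slc25a31, chr3:40708738-40708823, plus strand: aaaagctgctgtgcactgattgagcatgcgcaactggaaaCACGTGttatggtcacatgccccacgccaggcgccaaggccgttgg
Hormad1, chr3:95559580-95559676, plus strand: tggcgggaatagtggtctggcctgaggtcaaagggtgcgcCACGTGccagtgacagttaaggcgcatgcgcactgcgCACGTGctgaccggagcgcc
Sycp1, chr3:102936149-102936234, minus strand: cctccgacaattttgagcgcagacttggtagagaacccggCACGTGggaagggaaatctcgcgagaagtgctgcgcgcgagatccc
Mov10l1, chr15:88982744-88982793, plus strand: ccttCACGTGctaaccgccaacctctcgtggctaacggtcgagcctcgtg

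The genes behind these sequences were silent or nearly so in AF cells and low in the epiblast. Mael, of the piRNA pathway, was at 0 in all AF libraries and at 1.45, 3.64 and 2.45 CPM in the epiblasts (at least 8.25-fold lower). Sycp1, of the synaptonemal complex, was at 0 in AF and at 1.18, 8.84 and 10.1 CPM in the epiblasts (at least 22.1-fold lower), so epiblast 1 was well below the other 2. Hormad1, of the meiotic chromosome axis, was at 0 in AF and at 0.657, 1.3 and 3.197 CPM in the epiblasts (at least 5.64-fold lower; at least 3.21-fold without epiblast 3). No read of these 3 genes was counted in any AF library. The piRNA helicase gene Mov10l1 was at 0, 0.0881 and 0 CPM in AF cells against 3.29, 4.59 and 8.63 CPM in epiblasts (at least 18.1-fold lower). The ADP/ATP carrier gene Slc25a31 was at 0 in AF and 1.31, 0.7797 and 0.3197 CPM in epiblasts (at least 2.64-fold lower). The epiblast counts of Slc25a31 were themselves close to the floor. Ddx4, the VASA helicase, was at 0.247, 0 and 0.0929 CPM in AF cells against 11.2, 9.27 and 13.3 CPM in epiblasts (at least 36.97-fold lower). Tdrd1, a piRNA scaffold, was at 0, 0.264 and 0 CPM in AF cells against 5.78, 5.02 and 4.48 CPM in epiblasts (at least 16.7-fold lower).

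AF differed from AFX in 6 of the 24 germ cell genes, against 8.04% of all genes tested, and in 4 of them without any 1 of the AF libraries. Among the 6 were Sycp3 and Rnf17, which AFX cells expressed near or above the epiblast level. Sycp3, of the synaptonemal complex, was at 0.371, 0.176 and 0.279 CPM in AF cells against 12.8, 14.3 and 11.5 CPM in epiblasts (at least 42.2-fold lower) and at 20.7 ± 15.7 CPM in AFX (AF against AFX, at least 68.1-fold lower, or at least 38.4-fold without AFX passage 14). Rnf17, a tudor domain gene, was at 0.865, 0.352 and 1.02 CPM in AF cells against 21.6, 22.4 and 21.8 CPM in epiblasts (log2 fold change -4.88 ± 0.46, adjusted p = 8.45e-08) and at 18.1 ± 5.82 CPM in AFX (AF minus AFX, log2 fold change -4.60 ± 0.46, adjusted p = 1.06e-06). The 2 germ cell genes that were higher in AF, Prdm1 and Tfap2c, encode early factors of germ cell specification that are also used outside the germ line. Tfap2c was at 5.06, 5.99 and 13.7 CPM in AF cells against 1.05, 2.43 and 0.853 CPM in epiblasts (log2 fold change 2.48 ± 0.65, adjusted p = 0.00471; 3.1 without epiblast 2). Prdm1, the BLIMP1 gene, was at 14.3, 12.2 and 22.1 CPM in AF cells against 2.23, 4.33 and 2.98 CPM in epiblasts (log2 fold change 2.33 ± 0.71, adjusted p = 0.0145), and its call was lost without epiblast 1 or epiblast 3 (adjusted p of 0.0596 and 0.0542). Tuba3a, which has near-identical copies and is uncertain for that reason, was at 0.124, 0 and 0.0929 CPM in AF cells against 5.78, 8.14 and 16.8 CPM in epiblasts (at least 33.7-fold lower).

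Primitive streak and mesendoderm genes were higher in AF cells in 10 of 23 members tested (29 listed) and lower in 1, with a median of 2.09. The higher members included the organiser genes Lhx1 and Chrd and the endoderm genes Sox17, Gata4 and Gata6, while T, Mixl1 and Eomes did not pass. Lhx1, a head organiser factor, was at 89.2, 40.8 and 168 CPM in AF cells against 0.263, 1.82 and 0.959 CPM in epiblasts (log2 fold change 6.5 ± 1.06, adjusted p = 0.000228). Sox17, the endoderm factor, was at 26.7, 23.7 and 43.02 CPM in AF cells against 0, 0.5198 and 0 CPM in epiblasts (log2 fold change 7.18 ± 1.49, adjusted p = 0.0018). The epiblasts held few reads of either gene. Gata6 was at 14.2, 17.1 and 22.7 CPM in AF cells against 0, 1.3 and 0 CPM in epiblasts (log2 fold change 5.18 ± 1.03, adjusted p = 0.000612). Gata4 was at 6.18, 15.7 and 8.36 CPM in AF cells against 0.789, 0.866 and 0.533 CPM in epiblasts (log2 fold change 3.76 ± 0.70). In these 4 genes each AF library exceeded each epiblast. For Lhx1 the log2 fold change was 7.25 without epiblast 2 and 5.9 without passage 16. Epiblast 2 held the only counts of Sox17 and Gata6 among the embryos, and without it Sox17 was at least 87.2-fold and Gata6 at least 50.4-fold higher in AF cells. Chrd, the BMP antagonist chordin, was at 46.8, 13.1 and 83.3 CPM in AF cells against 1.58, 3.47 and 0.959 CPM in epiblasts (log2 fold change 4.53 ± 0.75). For Chrd the log2 fold change was 3.85 without passage 16 and 5.24 without epiblast 2.

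T, the brachyury gene that marks the streak, was at 55.9, 11.9 and 103 CPM in AF cells against 3.29, 14.1 and 0.3197 CPM in epiblasts (log2 fold change 3.23 ± 1.26, adjusted p = 0.0571). Mixl1, another streak gene, was at 13.7, 0.616 and 30.5 CPM in AF cells against 0.657, 10.2 and 0.213 CPM in epiblasts (log2 fold change 1.97 ± 1.16, adjusted p = 0.201). Neither passed the threshold, and both varied widely within each group. Among AF libraries passage 15 was the lowest for T and Mixl1, and among embryos epiblast 2 was the highest. Without epiblast 2 both passed, T at a log2 value of 5.03 (adjusted p = 0.0326) and Mixl1 at 5.11 (adjusted p = 0.0108). T also passed without passage 15 (adjusted p = 0.0472). Without passage 16 the log2 fold change fell to 2.48 for T (adjusted p = 0.182) and to 0.91 for Mixl1 (adjusted p = 0.616). Eomes, the T-box factor of streak and endoderm, was at 67.1, 53.4 and 134 CPM in AF cells against 98.3, 187 and 69.7 CPM in epiblasts (log2 fold change -0.48 ± 0.44, adjusted p = 0.426), and its log2 fold change was 0.01 without epiblast 2. The lower member was Snai1, the repressor of E-cadherin, at 1.98, 1.85 and 2.04 CPM in AF cells against 7.62, 9.53 and 6.39 CPM in epiblasts (log2 fold change -2.0 ± 0.60). The summed level of the list was 530, 275 and 919 CPM in AF and 186, 387 and 131 CPM in the epiblasts, so passage 15 lay below epiblast 2.

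Markers of visceral endoderm, which surrounds the epiblast, were counted beside these genes, because this list also holds Sox17, Gata4 and Gata6. Of 22 tested (26 listed), 8 were higher and 1 lower, with a median of 0.63, and the list summed to 569 to 827 CPM in AF and 412 to 477 CPM in E6.0. Its other higher members included Cer1 and Hhex, a homeobox gene of the anterior visceral and definitive endoderm, which was at 20.1, 18.1 and 34.6 CPM in AF cells against 1.05, 0.347 and 1.81 CPM in epiblasts (log2 fold change 4.52 ± 0.66, adjusted p = 1.65e-05; 5.18 without epiblast 3). Of its members 7 were at 3 counts or fewer in every AF library, among them Afp, Apoa2, Trf, Fgb and Ttr, and 8 were so in every epiblast, which included these 5. Other secreted-protein markers were detected in AF: Apoe had 468, 1953 and 632 counts against 600, 1054 and 1066 in the epiblasts, and Spink1 had 29, 53 and 41 against 1, 0 and 12. Some members had fewer counts in AF. Apoa4 had 0 in every AF library against 7, 2 and 17 in the epiblasts, and Cubn had 3, 3 and 5 against 8, 16 and 14. The part of such cells in the result was not tested. Markers of extraembryonic ectoderm were higher in 5 of 16 tested (20 listed) and lower in none, with a median of 1.68, and summed to 149 to 243 CPM in AF and 119 to 248 CPM in E6.0. Without passage 15 or without epiblast 3, 2 members passed. Elf5, a defining gene of that tissue, had 0 counts in every AF library and 2, 5 and 3 counts in epiblasts 1, 2 and 3. Tead4 was the member with the smallest adjusted p, at 8.15, 13.7 and 10.8 CPM in AF cells against 0.789, 2.77 and 0.639 CPM in epiblasts (log2 fold change 2.9 ± 0.62, adjusted p = 0.00084; 3.92 without epiblast 2).

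**Figure D3:**
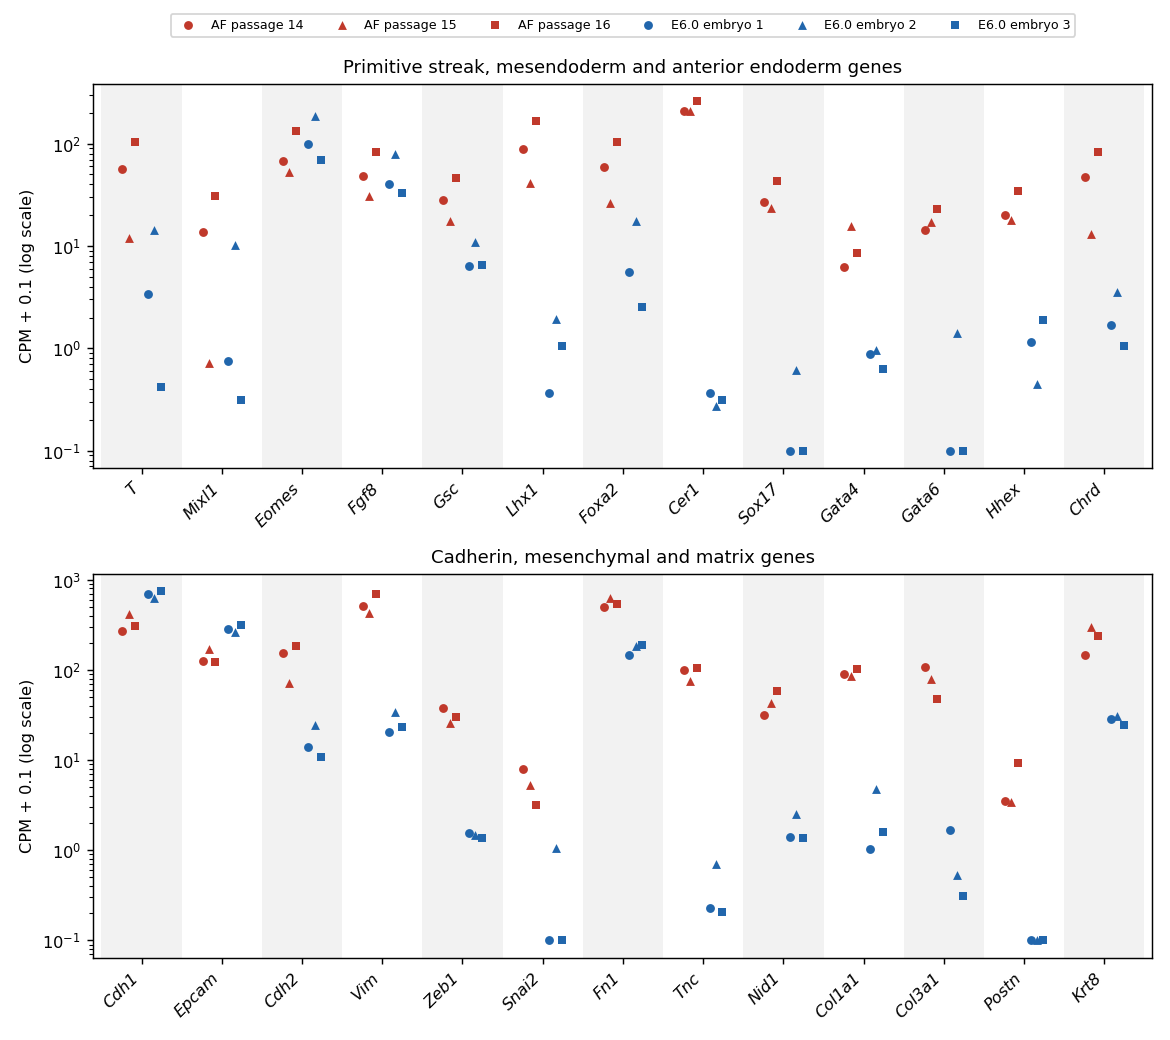
Points are CPM + 0.1 on a log axis in the 3 AF passages (red) and the 3 E6.0 epiblasts (blue), for streak, mesendoderm and anterior endoderm genes (top) and cadherin, mesenchymal and matrix genes (bottom). T, Mixl1 and Eomes overlap between the groups, whereas Lhx1, Cer1, Sox17, Gata4 and Gata6 do not, and Vim, Zeb1, Tnc and Postn are higher in every AF library.

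NODAL pathway genes changed in both directions: of 21 tested (26 listed), 6 were higher and 4 lower, with a median of 0.22. Cfc1, the EGF-CFC co-receptor CRYPTIC, was at 6.42, 12.2 and 9.199 CPM in AF cells against 0.131, 0.433 and 0.107 CPM in epiblasts (log2 fold change 5.22 ± 0.95, adjusted p = 0.000186; at least 25.9-fold higher without epiblast 2). Lefty1, a NODAL-induced antagonist, was at 152, 80.8 and 199.96 CPM in AF cells against 10.6, 7.45 and 9.91 CPM in epiblasts (log2 fold change 3.95 ± 1.25, adjusted p = 0.023). Its groups did not overlap, but the call was lost without passage 16 (adjusted p = 0.0591) and without any one of epiblasts 1, 2 and 3 (adjusted p of 0.0632, 0.0798 and 0.072). Lefty2 did not pass at 25.4, 28.5 and 14.2 CPM in AF cells against 4.47, 8.66 and 3.73 CPM in epiblasts (log2 fold change 2.0 ± 1.02, adjusted p = 0.136). Nodal, the ligand, did not pass either at 26.1, 12.9 and 27.9 CPM in AF cells against 38.9, 43.1 and 31.5 CPM in epiblasts (log2 fold change -0.77 ± 0.54, adjusted p = 0.285), though no AF library reached the lowest epiblast. With the 6 libraries fitted alone both passed (adjusted p = 0.00196 for Lefty2 and 0.0452 for Nodal). Skil, the SMAD corepressor SNON, was lower at 227, 214 and 222 CPM in AF cells against 373, 377 and 364 CPM in epiblasts (log2 fold change -0.75 ± 0.18).

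Of 30 FGF ligands, receptors and ERK feedback genes (32 listed), 7 were higher and 5 lower, with a median of 0.17, close to the shares over all genes tested (19% and 18%). Fgf15, a ligand of the embryonic epiblast and neural tissue, was at 8.89, 4.84 and 7.62 CPM in AF cells against 42.2, 42.9 and 41.99 CPM in epiblasts (log2 fold change -2.58 ± 0.42, adjusted p = 0.000114). Fgf10 was at 3.71, 3.79 and 6.23 CPM in AF cells against 0.131, 0.693 and 0.426 CPM in epiblasts (log2 fold change 3.36 ± 0.69, adjusted p = 0.000584). The feedback inhibitors Spred1 and Il17rd were higher. Spred1 was at 158, 135 and 155 CPM in AF cells against 53.9, 55.2 and 40.5 CPM in epiblasts (log2 fold change 1.58 ± 0.23, adjusted p = 2.67e-05). Il17rd was at 170.3, 158 and 179 CPM in AF cells against 78.7, 111 and 93.3 CPM in epiblasts (log2 fold change 0.84 ± 0.20).

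WNT pathway members changed in both directions, with 14 of 41 higher and 13 lower (46 listed) and a median of 0.57. The secreted antagonist gene Dkk1 was at 15.4, 11.01 and 17 CPM in AF cells against 0.657, 0.5198 and 0 CPM in epiblasts (log2 fold change 5.18 ± 0.92, adjusted p = 0.000196). Sfrp1 was at 94.5, 103 and 100.4 CPM in AF cells against 31.4, 24 and 26.96 CPM in epiblasts (log2 fold change 1.86 ± 0.26, adjusted p = 1.43e-05). Lgr5, the R-spondin receptor gene, was at 17.5, 5.99 and 31.9 CPM in AF cells against 0.263, 0.693 and 0.3197 CPM in epiblasts (log2 fold change 5.34 ± 0.88, adjusted p = 8.08e-05; 4.69 without passage 16). All 3 genes rose without overlap. The transcription factor gene Lef1 was lower at 61.01, 35.05 and 71.4 CPM in AF cells against 124, 119.6 and 111 CPM in epiblasts (log2 fold change -1.08 ± 0.26). Among Frizzled receptor genes, Fzd5 was at 101, 145 and 139 CPM in AF cells against 34.4, 39.9 and 40.7 CPM in epiblasts (log2 fold change 1.74 ± 0.26). Fzd7 was at 123, 123 and 111 CPM in AF cells against 253, 262 and 316 CPM in epiblasts (log2 fold change -1.22 ± 0.16). The 2 receptor genes moved in opposite directions without overlap.

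BMP pathway genes were higher in 9 of 25 tested (27 listed) and lower in 4, with a median of 0.42. The higher ones included the ligand genes Bmp2 and Bmp7 and the antagonist gene Nog, and the lower ones the target gene Id3. Bmp2 was at 29.9, 31.8 and 44.2 CPM in AF cells against 0.526, 1.3 and 0.3197 CPM in epiblasts (log2 fold change 5.54 ± 0.70, adjusted p = 5.14e-06; 6.37 without epiblast 2). Bmp7 was at 14.3, 17.8 and 25.2 CPM in AF cells against 0.657, 1.3 and 0.213 CPM in epiblasts (log2 fold change 4.65 ± 0.96, adjusted p = 0.00116; 5.47 without epiblast 2). The antagonist gene Nog was at 3.83, 8.01 and 5.11 CPM in AF cells against 0.131, 0.0866 and 0.213 CPM in epiblasts (at least 17.4-fold higher, adjusted p = 0.000842). All 3 genes were near the floor in the epiblasts. Id3, a direct target of BMP signalling, was at 11.4, 11.7 and 15.6 CPM in AF cells against 44.04, 52.9 and 39.2 CPM in epiblasts (log2 fold change -1.81 ± 0.43, adjusted p = 0.00266). Retinoic acid genes counted 4 higher and 3 lower of 18 tested (26 listed), with a median of 0.49, near the shares over all genes tested (19% and 18%). Cyp26a1, which degrades retinoic acid and is expressed in the anterior streak, was at 87.7, 52.7 and 132 CPM in AF cells against 0.526, 4.16 and 0.426 CPM in epiblasts (log2 fold change 5.62 ± 1.05; 7.55 without epiblast 2). The receptor gene Rarg was at 45.8, 41.7 and 46.5 CPM in AF cells against 69.1, 67.3 and 65.7 CPM in epiblasts (log2 fold change -0.59 ± 0.13).

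Of 30 cadherin and epithelial to mesenchymal genes, 10 were higher and 10 lower, with a median of -0.08, so that the list as a whole had no direction. E-cadherin was among the lower members, and N-cadherin and vimentin among the higher ones. Cdh1, E-cadherin, was at 272, 414 and 310.4 CPM in AF cells against 688, 634 and 744 CPM in epiblasts (log2 fold change -1.05 ± 0.18, adjusted p = 9.95e-05). The epithelial adhesion gene Epcam was at 126, 169 and 122 CPM in AF cells against 281, 265 and 311 CPM in epiblasts (log2 fold change -1.04 ± 0.16, adjusted p = 2.79e-05). Both genes fell but stayed well above the floor. Cdh2, N-cadherin, was at 155, 70.6 and 182 CPM in AF cells against 13.9, 24.3 and 10.7 CPM in epiblasts (log2 fold change 3.04 ± 0.34, adjusted p = 3.25e-06). Vim, the mesenchymal intermediate filament gene, was at 505, 428 and 698 CPM in AF cells against 20.2, 34.4 and 23.2 CPM in epiblasts (log2 fold change 4.38 ± 0.28). Zeb1, a repressor of E-cadherin, was at 38.04, 25.7 and 29.8 CPM in AF cells against 1.45, 1.39 and 1.28 CPM in epiblasts (log2 fold change 4.5 ± 0.37). All 5 genes were without overlap. Simple epithelial keratin genes also rose. Krt8 was at 148, 297 and 238 CPM in AF cells against 28.8, 30.6 and 24.5 CPM in epiblasts (log2 fold change 3.03 ± 0.37). Krt19 was at 38.8, 184 and 52.04 CPM in AF cells against 0.789, 1.91 and 0.533 CPM in epiblasts (log2 fold change 6.33 ± 0.97). Passage 15 was highest for both keratins, and the log2 fold change of Krt19 was 5.33 without it and 7.11 without epiblast 2.

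Basement membrane and matrix genes were higher in 28 of 36 tested (37 listed) and lower in 2, with a median of 1.49. Fn1, fibronectin, was at 499.8, 621 and 532 CPM in AF cells against 146, 184 and 189 CPM in epiblasts (log2 fold change 1.67 ± 0.33, adjusted p = 0.000946). The nidogen gene Nid1 was at 31.7, 42.4 and 58.1 CPM in AF cells against 1.31, 2.43 and 1.28 CPM in epiblasts (log2 fold change 4.68 ± 0.39, adjusted p = 9.29e-09). Serpinh1, the collagen chaperone gene, was at 252, 292 and 255 CPM in AF cells against 51.5, 54.1 and 46.5 CPM in epiblasts (log2 fold change 2.39 ± 0.19, adjusted p = 3.94e-09). The integrin subunit gene Itgav was at 72.4, 75.4 and 67.3 CPM in AF cells against 28.3, 30.4 and 26.1 CPM in epiblasts (log2 fold change 1.34 ± 0.19). For these 4 genes all AF libraries lay above all epiblasts. Col18a1, the endostatin precursor of basement membranes, went the other way at 172, 186 and 202 CPM in AF cells against 422, 457 and 542 CPM in epiblasts (log2 fold change -1.35 ± 0.18).

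Genes that mark fibroblasts, which serve as feeder cells in many EpiSC cultures, moved with these matrix genes. Of 21 tested (24 listed), 17 were higher and none lower, with a median of 2.34. In 5 of them every epiblast had 3 counts or fewer, and of the other 16, 12 were higher. The list summed to 566, 697 and 539 CPM in AF cells, to 84.0, 79.1 and 77.9 CPM in epiblasts and to 206 to 236 CPM in AFX, and none of its members in the table was at 3 counts or fewer in every AF library. The labels do not say whether feeder cells were used, and the part of fibroblast RNA in the matrix and adhesion results was not tested. Col1a1, a chain of type I collagen, was at 89.5, 85.6 and 103 CPM in AF cells against 0.9202, 4.68 and 1.49 CPM in epiblasts (log2 fold change 5.21 ± 0.61, adjusted p = 6.98e-06; 6.23 without epiblast 2) and at 12.1 ± 6.15 CPM in AFX. Col3a1 was at 108, 79.6 and 47.6 CPM in AF cells against 1.58, 0.433 and 0.213 CPM in epiblasts (log2 fold change 6.81 ± 0.83, adjusted p = 9.43e-06; 7.83 without epiblast 1). Postn, periostin, was at 3.46, 3.35 and 9.29 CPM in AF cells and at 0 in every epiblast (at least 16.5-fold higher, adjusted p = 6.21e-05; at least 10.5-fold without passage 16).

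YAP and TEAD genes and targets were higher in 18 of 32 tested (35 listed) and lower in 5, with a median of 1.04. Anxa3 was at 23.2, 39.1 and 27.9 CPM in AF cells against 0.394, 0.433 and 0.213 CPM in epiblasts (log2 fold change 6.38 ± 0.67, adjusted p = 2.76e-07). Anxa1 was at 21.4, 12.6 and 15.5 CPM in AF cells against 0.131, 0 and 0 CPM in epiblasts (at least 50.8-fold higher). Its mean was 0.494 CPM in E5.0 and lower still in all other groups but AF. It was thus tested through its AF counts, and its direction is only described. Yap1 itself was lower at 142, 128 and 141 CPM in AF cells against 194, 210.2 and 187 CPM in epiblasts (log2 fold change -0.53 ± 0.11, adjusted p = 0.00065). Of 30 clustered Hox genes only Hoxa10 and Hoxd9 were tested. They passed the filter through their AF counts, with every epiblast at 0, so their direction was fixed by the filter and is only described. The 30 genes summed to 34.3, 12.7 and 15.5 CPM in AF, to 0.779 to 1.17 CPM in the epiblasts and to 0.125 to 0.914 CPM in AFX. Hoxa10 was at 5.43, 1.41 and 1.95 CPM in AF and at 0 in all epiblasts (at least 9.03-fold higher; at least 5.17-fold without passage 14). Hoxd9 was at 2.22, 1.06 and 1.12 CPM and 0 (at least 4.51-fold higher). With the DESeq2 Wald test neither passed (adjusted p = 0.146 for Hoxa10 and 0.0878 for Hoxd9). Hox genes are expressed in fibroblasts and in posterior embryonic tissue, and their source was not tested.

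**Figure D4:**
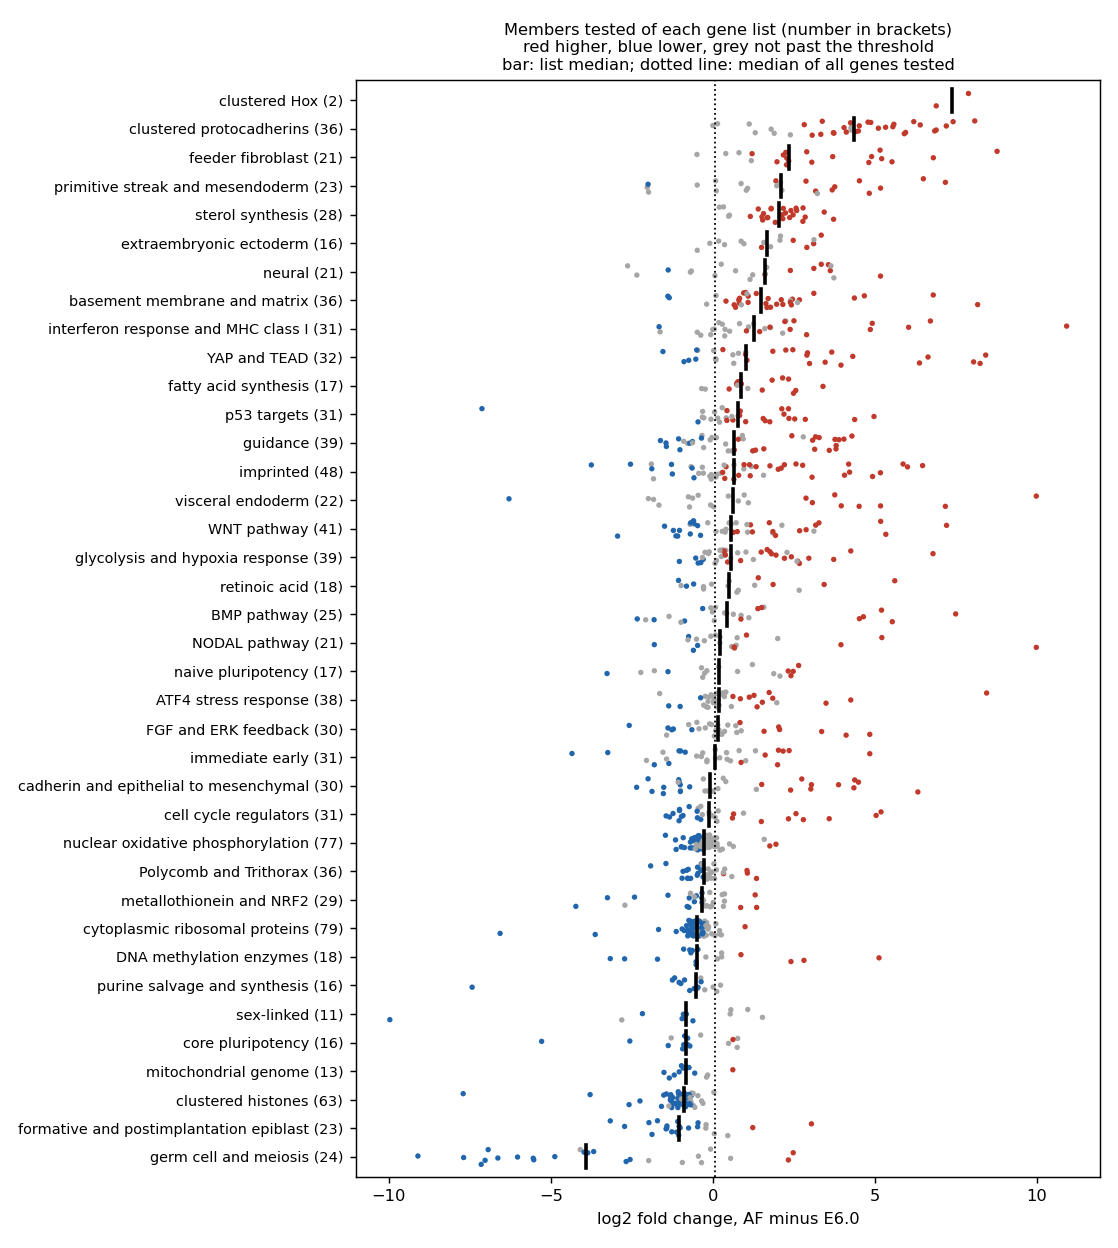
Each row is a gene list with the number of members tested in brackets, each point the log2 fold change of 1 member (AF minus E6.0), each black bar the list's median and the dotted line the median of all genes tested, 0.08. Red points were higher and blue points lower at an adjusted p under 0.05; germ cell genes, histones and formative genes lie to the left, and protocadherin, feeder fibroblast and sterol genes to the right.

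Sterol synthesis genes were higher in AF cells along nearly the whole pathway: 24 of 28 passed, all higher, with a median of 2.03, and the summed level was 3439, 3772 and 3753 CPM against 906, 955 and 1136 CPM in the epiblasts. The pathway makes cholesterol from acetyl-CoA and is driven by SREBP2 when sterols are low. Hmgcs1, its first committed synthase, was at 539, 589 and 576 CPM in AF cells against 76.1, 72.3 and 98.7 CPM in epiblasts (log2 fold change 2.79 ± 0.19, adjusted p = 1.06e-09). Msmo1, a later demethylase step, was at 206, 251 and 223 CPM in AF cells against 17.2, 13.2 and 21.1 CPM in epiblasts (log2 fold change 3.73 ± 0.22, adjusted p = 1.31e-10). The 3 AF passages lay close together for both genes. Srebf2, the SREBP2 gene, was at 269.7, 375 and 273 CPM in AF cells against 101, 98.9 and 121 CPM in epiblasts (log2 fold change 1.52 ± 0.13, adjusted p = 8.52e-09). None of these 3 genes overlapped. Scap, Insig1 and Insig2, which control the transport of SREBP out of the endoplasmic reticulum, did not pass. Scap was at 27.05, 22.6 and 31.7 CPM in AF cells against 21.7, 22.4 and 26.8 CPM in epiblasts (log2 fold change 0.20 ± 0.22, adjusted p = 0.502). Insig1 was at 47.3, 47.8 and 35.1 CPM in AF cells against 30.1, 28.2 and 45.5 CPM in epiblasts (log2 fold change 0.33 ± 0.23, adjusted p = 0.277). Insig2 was at 8.398, 10.04 and 8.46 CPM in AF cells against 6.31, 4.94 and 7.99 CPM in epiblasts (log2 fold change 0.49 ± 0.34, adjusted p = 0.284). The letters TCACNCCAC, a form of the sterol regulatory element, were searched on both strands of the same 250-base windows. They occurred in 142 of 10825 tested genes (1.31%) and in 1 of 20 sterol genes with a promoter sequence, Hmgcs1, whose stretch is shown with the element in capitals.
Hmgcs1, chr13:119690174-119690262, plus strand: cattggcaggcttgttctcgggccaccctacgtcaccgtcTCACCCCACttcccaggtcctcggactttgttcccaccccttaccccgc

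AF and AFX cells differed in 3 of the 28 sterol genes, and AF and FS cells in 9, or in 3 without AF passage 15. In all genes tested, AF differed from AFX in 1336 (8.04%, with 4.29% higher and 3.75% lower in AF) and from FS in 2957 (17.8%, with 10.4% higher and 7.43% lower). Without AFX passage 15 the count against AFX was 778. The AFX differences were concentrated on chromosome 15, with 184 of its 528 protein-coding genes tested, against 1261 of 13636 on all chromosomes. The part of chromosome 15 in the differences between AF and AFX was not tested. Hmgcs1 stood at 470.2 ± 97.2 CPM in AFX and at 597 ± 104 CPM and 573 ± 108 CPM in the FS lines. Fatty acid synthesis genes were higher in 13 of 17 and lower in none, with a median of 0.88. The desaturase gene Scd2 was at 1009, 903 and 1241 CPM in AF cells against 249, 277 and 182 CPM in epiblasts (log2 fold change 2.15 ± 0.17, adjusted p = 8.12e-09). Scd1 was at 238, 309 and 223 CPM in AF cells against 44.6, 41.2 and 44.8 CPM in epiblasts (log2 fold change 2.56 ± 0.46, adjusted p = 0.000452), at 287 ± 12.9 CPM in AFX and at 5.49 ± 6.54 CPM and 8.57 ± 2.81 CPM in FS (AF minus FS, log2 fold change 5.22 ± 0.40, adjusted p = 2.88e-07; 6.07 without FS1 passage 10).

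Among nucleotide, translation and respiration genes, lower members outnumbered higher ones. Over all genes tested 18% were lower and 19% higher, and of those of at least 100 CPM 56.7% were lower and 9.4% higher. The part of gene level in these counts was not tested. Of 16 purine synthesis and salvage genes tested (18 listed), 10 were lower and none higher, with a median of -0.53. Ppat, which commits the synthesis, was at 91.4, 46.5 and 110.02 CPM in AF cells against 183, 189 and 189 CPM in epiblasts (log2 fold change -1.18 ± 0.20, adjusted p = 8.17e-05). Atic, its last enzyme, was at 139, 80.1 and 144 CPM in AF cells against 289, 286 and 285 CPM in epiblasts (log2 fold change -1.25 ± 0.15, adjusted p = 1.64e-06). Cytoplasmic ribosomal protein genes, which have many retrocopies, were lower in 58 of 79 tested and higher in 1, with a median of -0.48. Protein genes of the mitochondrial genome were lower in 10 of 13 and higher in 1, with a median of -0.84, and summed to 6466 to 7737 CPM in AF and 11418 to 12382 CPM in E6.0. The complex I gene mt-Nd2 was at 424, 274 and 412 CPM in AF cells against 854, 968 and 996 CPM in epiblasts (log2 fold change -1.34 ± 0.19, adjusted p = 1.41e-05). Nuclear oxidative phosphorylation genes were lower in 25 of 77 and higher in 2, with a median of -0.26. Clustered histone genes, whose sequences are near-identical and whose main transcripts lack a poly(A) tail, were lower in 50 of 63 and higher in none, with a median of -0.90.

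Glycolysis and hypoxia response genes were higher in 17 of 39 and lower in 5, with a median of 0.55. Ndrg1, induced by hypoxia, was at 27.3, 48.9 and 44.5 CPM in AF cells against 2.498, 2.599 and 1.17 CPM in epiblasts (log2 fold change 4.26 ± 0.74, adjusted p = 0.000347). The glycolytic enzyme genes Ldha and Pkm were lower. Ldha was at 1087, 994 and 1009 CPM in AF cells against 1524, 1522 and 1411 CPM in epiblasts (log2 fold change -0.53 ± 0.13, adjusted p = 0.00229). Pkm was at 2049, 2139 and 1928 CPM in AF cells against 2814, 2754 and 2806 CPM in epiblasts (log2 fold change -0.45 ± 0.09, adjusted p = 0.000436). The summed level of the list was 10467, 14323 and 9809 CPM in AF and 10860 to 11438 CPM in E6.0, so that passage 15 alone lay above the embryos. Genes of the ATF4 response were higher in 11 of 38 tested (41 listed) and lower in 3, with a median of 0.18. The share past the threshold was 36.8%, near the 37.1% over all genes tested, and 9 members passed without epiblast 3.

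Of the 29 metallothionein and NRF2 genes tested, 12 were lower and 3 higher, with a median of -0.33. Mt1 and Mt2, the metallothioneins, were at 12.97, 8.01 and 20.9 CPM in AF cells against 105, 110.4 and 184 CPM in epiblasts for Mt1 (log2 fold change -3.25 ± 0.55, adjusted p = 0.000299) and at 3.58, 1.67 and 6.41 CPM in AF cells against 62.05, 64.2 and 92.9 CPM in epiblasts for Mt2 (log2 fold change -4.23 ± 0.54, adjusted p = 2.04e-05; -4.84 without passage 16). Both genes fell without overlap. Slc30a1, a zinc exporter induced together with them, was at 18.3, 9.86 and 29.1 CPM in AF cells against 49.4, 55.8 and 44.2 CPM in epiblasts (log2 fold change -1.39 ± 0.30, adjusted p = 0.0011). The ferritin light chain gene Ftl1, which has retrocopies and is uncertain, was at 46.3, 79.8 and 53.7 CPM in AF cells against 327, 303 and 334 CPM in epiblasts (log2 fold change -2.42 ± 0.17). Among the 3 higher members was Gpx4, the lipid peroxide reductase gene, at 62.6, 55.6 and 72.5 CPM in AF cells against 22.1, 22.3 and 30.3 CPM in epiblasts (log2 fold change 1.35 ± 0.22).

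Imprinted genes were more often higher than lower: of 48 tested (52 listed), 24 were higher and 7 lower, with a median of 0.65. Without passage 15, 20 members passed. Igf2, the paternally expressed growth factor gene, was at 293, 268 and 119 CPM in AF cells against 2.89, 4.07 and 3.41 CPM in epiblasts (log2 fold change 6.01 ± 0.62, adjusted p = 3.32e-06). H19, its maternally expressed neighbour, was at 11.6, 1.41 and 0.279 CPM in AF cells against 38.4, 64.1 and 64.6 CPM in epiblasts (log2 fold change -3.75 ± 0.71, adjusted p = 0.000792). The 2 genes moved in opposite directions without overlap. For H19 the log2 fold change was -6.01 without passage 14 and -3.16 without passage 16, and the call was lost with both FS lines in 1 group (adjusted p = 0.052). Peg10, of retrotransposon origin and needed in the placenta, was at 403, 405 and 475 CPM in AF cells against 6.704, 16.3 and 11.9 CPM in epiblasts (log2 fold change 5.17 ± 0.34, adjusted p = 5.84e-09). Sfmbt2, also paternally expressed and of the placenta, was at 92.1, 86.1 and 93.4 CPM in AF cells against 1.97, 3.55 and 3.197 CPM in epiblasts (log2 fold change 4.93 ± 0.64) and at 5.41 ± 1.44 CPM in AFX (AF minus AFX, log2 fold change 4.04 ± 0.60, adjusted p = 0.000442). Cdkn1c, the maternally expressed cell cycle inhibitor, was at 109, 73.97 and 107 CPM in AF cells against 13.9, 16.7 and 18.2 CPM in epiblasts (log2 fold change 2.57 ± 0.26). These 3 genes rose without overlap. Peg3 was at 515, 1079.9 and 573 CPM in AF cells against 205, 169 and 129 CPM in epiblasts (log2 fold change 2.11 ± 0.26). Snrpn was lower at 64.1, 38.1 and 43.9 CPM in AF cells against 118, 106 and 129 CPM in epiblasts (log2 fold change -1.28 ± 0.17). The counting is not stated to use strand, so overlapping imprinted transcripts cannot be told apart.

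**Figure D5:**
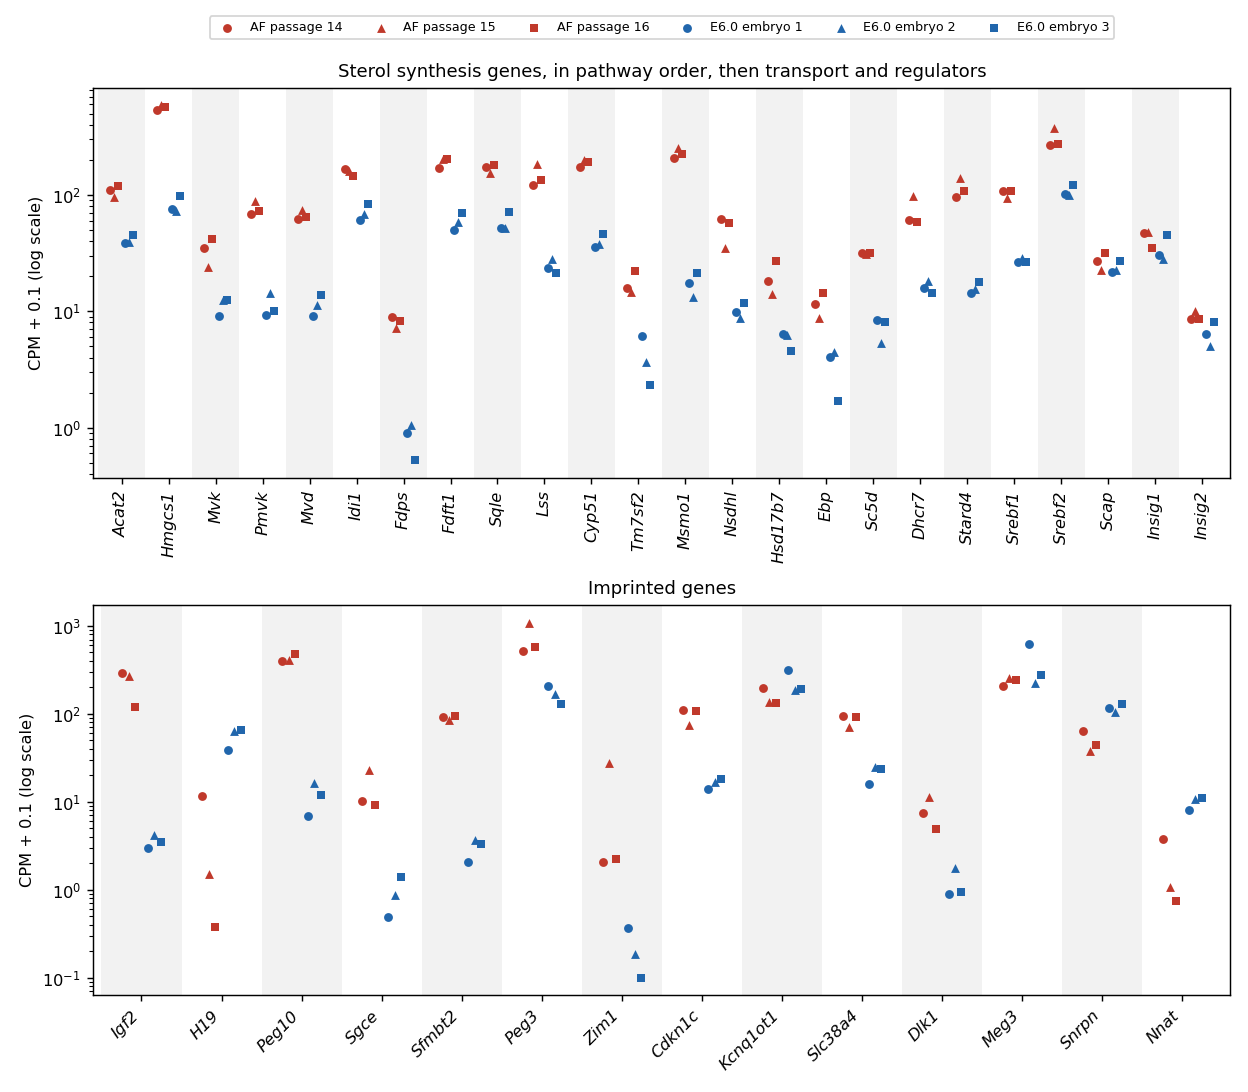
Points are CPM + 0.1 on a log axis in the 3 AF passages (red) and the 3 E6.0 epiblasts (blue), for 24 of the 28 sterol genes (top) and 14 imprinted genes (bottom). The AF points of Hmgcs1, Msmo1 and Srebf2 lie above all epiblasts, and Igf2, Peg10 and Sfmbt2 rise where H19, Snrpn and Nnat fall; Kcnq1ot1 overlaps another gene, and its strand is not resolved.

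Of 31 p53 target genes tested, 18 were higher and 2 lower, with a median of 0.78, and Pmaip1, described above, was one of the 2. Cdkn1a, the p21 gene, was at 17.04, 31 and 27.8 CPM in AF cells against 5.52, 5.98 and 3.52 CPM in epiblasts (log2 fold change 2.33 ± 0.38, adjusted p = 6.55e-05). Ccng1 was at 131, 160.3 and 181 CPM in AF cells against 39.04, 41.9 and 58.5 CPM in epiblasts (log2 fold change 1.76 ± 0.22, adjusted p = 5.66e-06). Perp, an adhesion and death gene, was at 19.1, 23.9 and 28.9 CPM in AF cells against 1.18, 1.56 and 0.639 CPM in epiblasts (log2 fold change 4.38 ± 0.52, adjusted p = 1.4e-06). Cell cycle regulators counted 9 higher and 12 lower of 31 tested, with a median of -0.12. The replication licensing gene Mcm2 was at 272, 187 and 253 CPM in AF cells against 495, 577 and 596 CPM in epiblasts (log2 fold change -1.23 ± 0.11). Pcna was at 119.9, 82.95 and 116 CPM in AF cells against 213, 218 and 219.97 CPM in epiblasts (log2 fold change -1.03 ± 0.13). Both genes fell without overlap. D-type cyclin genes diverged. Ccnd2 was at 134, 91.3 and 78.3 CPM in AF cells against 6.84, 14.5 and 3.304 CPM in epiblasts (log2 fold change 3.59 ± 0.51; 4.34 without epiblast 2). Ccnd1 was at 108, 42.7 and 127 CPM in AF cells against 182, 195 and 187 CPM in epiblasts (log2 fold change -1.03 ± 0.31). Neither cyclin gene overlapped between the groups. Their kinase gene Cdk6 was at 182, 131 and 184 CPM in AF cells against 27.1, 29.3 and 15.1 CPM in epiblasts (log2 fold change 2.8 ± 0.44). Cdkn2a, which encodes p16 and p19ARF from 1 locus, was at 1.48, 5.46 and 4.46 CPM in AF cells against 0, 0.0866 and 0.213 CPM in epiblasts (at least 11.7-fold higher, adjusted p = 0.00126).

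Of 31 immediate early genes, 7 were higher and 7 lower, with a median of 0.08, near the shares over all genes tested (19% and 18%). With 1 library left out, the median ran from -0.299 to 0.254, and 8 members passed without passage 15. Fosb, of the AP-1 family, was at 0.371, 1.23 and 0.929 CPM in AF cells against 23.1, 20.8 and 10.02 CPM in epiblasts (log2 fold change -4.35 ± 1.12, adjusted p = 0.00602). Egr2, a zinc finger factor, was at 0.247, 1.497 and 1.21 CPM in AF cells against 11.96, 10.05 and 7.03 CPM in epiblasts (log2 fold change -3.24 ± 0.86, adjusted p = 0.0053). Arc was higher at 37.2, 38.2 and 42 CPM in AF cells against 7.099, 8.403 and 7.35 CPM in epiblasts (log2 fold change 2.36 ± 0.29, adjusted p = 2.58e-06). Interferon response and MHC class I genes were higher in 12 of 31 tested (35 listed) and lower in 1, with a median of 1.26. With 1 library left out, this median ran from 0.648 to 1.362. Gbp2 was at 27.05, 16.1 and 36.3 CPM in AF cells against 0, 0.433 and 0.213 CPM in epiblasts (log2 fold change 6.72 ± 0.91; at least 74.2-fold higher without epiblast 2). B2m, the light chain of MHC class I, was at 14.8, 20.7 and 12.5 CPM in AF cells against 3.16, 3.12 and 2.88 CPM in epiblasts (log2 fold change 2.39 ± 0.41). H2-K1, a class I heavy chain gene whose paralogs and strain alleles make its count uncertain, was at 57.7, 90.4 and 61.8 CPM in AF cells against 2.37, 1.91 and 2.66 CPM in epiblasts (log2 fold change 4.92 ± 0.45).

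Neural genes were higher in 7 of 21 tested (25 listed) and lower in 1, with a median of 1.61. The share past the threshold was 38.1%, near the 37.1% over all genes tested. The count was 4 without epiblast 3 and 5 without passage 15. Nes, nestin, was at 452, 430.4 and 404 CPM in AF cells against 159, 139 and 124 CPM in epiblasts (log2 fold change 1.61 ± 0.15, adjusted p = 6.59e-08). Ncam1 was at 48.3, 53.01 and 39.1 CPM in AF cells against 4.21, 3.47 and 3.73 CPM in epiblasts (log2 fold change 3.63 ± 0.27, adjusted p = 1.83e-09). Both genes are also expressed outside the nervous system. Sox1, the neurectoderm factor, rose from a low level, at 9.76, 3.699 and 1.77 CPM in AF cells against 0.9202, 0.693 and 0.107 CPM in epiblasts (log2 fold change 3.12 ± 0.85, adjusted p = 0.00737; 2.26 without passage 14). Pax6 had 1, 7 and 1 counts in AF against 8, 11 and 24 in the epiblasts, and Pax2 had 1, 2 and 3 against 11, 19 and 7. In 5 of the 21 neural genes every epiblast had 3 counts or fewer. Of the 15 above that floor in both groups, 6 were higher and 1 lower. Clustered protocadherin genes, whose isoforms share 3' exons and are uncertain singly, were higher in 27 of 36 tested (56 listed) and lower in none, with a median of 4.34. In 25 of the 36 every epiblast had 3 counts or fewer (in 2 of these every AF library as well), so they were tested through groups where they are higher, the filter largely set their direction, and the count and median are only a description. Of the 11 above that floor in both groups, 8 were higher and none lower. The 56 listed genes summed to 139 to 143 CPM in AF, 125 to 148 CPM in AFX and 4.26 to 6.57 CPM in E6.0. Guidance genes were higher in 17 of 39 and lower in 8, with a median of 0.66. The SLIT ligand gene Slit3 was at 82.3, 94.8 and 83.2 CPM in AF cells against 6.44, 7.36 and 3.62 CPM in epiblasts (log2 fold change 3.89 ± 0.60). The plexin gene Plxnb1 was lower at 81.5, 83.9 and 83.9 CPM in AF cells against 179, 164 and 176 CPM in epiblasts (log2 fold change -1.06 ± 0.15). Polycomb and Trithorax genes were lower in 17 of 36 and higher in 4, with a median of -0.29. Ezh2, the H3K27 methyltransferase gene, was at 159, 127 and 162 CPM in AF cells against 212, 203 and 210.3 CPM in epiblasts (log2 fold change -0.48 ± 0.10). Kdm2b, which brings a Polycomb complex to CpG islands, was at 150.2, 141 and 139 CPM in AF cells against 248, 227 and 252 CPM in epiblasts (log2 fold change -0.76 ± 0.10).

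Sex-linked genes separated the embryos. Xist, expressed from the inactive X chromosome, was at 0.371, 0.704 and 0.6504 CPM in AF cells against 0.657, 969 and 855 CPM in epiblasts, and the Y-linked gene Ddx3y was at 69.2, 68.2 and 81.03 CPM in AF cells against 77.04, 0 and 0.639 CPM in epiblasts. Epiblast 1 and the AF libraries had high Ddx3y and 3 to 8 counts of Xist, and epiblasts 2 and 3 had high Xist and 0 and 6 counts of Ddx3y. The X-linked gene Ddx3x, which escapes X inactivation, was at 758, 482 and 735 CPM in AF cells against 1000.02, 1254 and 1225 CPM in epiblasts (log2 fold change -0.82 ± 0.21, adjusted p = 0.00609), and its call was lost without passage 15 (adjusted p = 0.0518). Of 11 sex-linked genes tested, 6 were lower in AF and none higher, with a median of -0.82. The part of sex in the X-linked values was not tested.

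AF cells were also tested against AFX and FS cells, in comparisons that share the AF libraries with the one above. Over all genes tested, 8.04% differed between AF and AFX and 17.8% between AF and FS. Genes named by fold were chosen by their AF values, and the AF libraries are shared, so nothing is read from such counts. Among the 12 genes that rose most by fold, 7 differed between AF and AFX, all higher in AF, and 11 differed between AF and FS, all higher in AF. The 7 against AFX were Gbp2b, Emp1, Anxa1, Tnc, Capn6, Pga5 and Sfrp5. Without AF passage 15, Capn6 no longer differed from AFX (adjusted p = 0.245), and Capn6 and Ahnak2 no longer differed from FS (adjusted p of 0.0815 and 0.0739). The Capn6 call against AFX was also lost without AFX passage 14 or 15 (adjusted p of 0.0965 and 0.109). Tnc was at 2.56 ± 1.65 CPM in AFX (AF minus AFX, log2 fold change 5.24 ± 0.74, adjusted p = 0.000292). Emp1, a membrane protein gene, was at 22.7, 18.1 and 17 CPM in AF cells against 0, 0.0866 and 0 CPM in epiblasts and at 0.549 ± 0.398 CPM in AFX (AF minus AFX, log2 fold change 5.03 ± 0.77). Like Gbp2b and Anxa1, Emp1 was tested through its AF counts, so its direction is only described. Cer1 was at 25.5 ± 33.3 CPM in AFX with 3 uneven libraries, and AF minus AFX did not pass (log2 fold change 3.14 ± 1.03, adjusted p = 0.0846), although it did without AFX passage 16 (log2 fold change 5.14, adjusted p = 0.0175). Among the 12 genes that fell most, 6 differed between AF and AFX. Pmaip1 and Ap1m2 were higher in AF than in AFX, and Sycp3, Rnf17, Dppa4 and Ttbk1 lower. The calls of Sycp3, Rnf17 and Ap1m2 held without any 1 library of AF, E6.0 or AFX. That of Pmaip1 was lost without passage 14 of AF or of AFX, that of Dppa4 without AF passage 14 or 15 or AFX passage 15, and that of Ttbk1 without any 1 AF passage or AFX passage 16. By list, AF and AFX differed in 11 of 21 feeder fibroblast genes, 14 of 36 matrix genes and 7 of 23 streak genes, against 8.04% of all genes. The streak count was 3 without AF passage 14 and 2 without AF passage 16, AFX passage 14 or AFX passage 15.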

How the data were processed

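The deposited file is a table of read counts per gene for 21 libraries, made by the authors. Per the submitters' processing notes, reads were trimmed with Trim Galore, aligned to mm10 with TopHat2 2.1.0 and counted with featureCounts 1.5.0; whether counting used strand is not given in the sources used here. Counts were used as deposited. Genes were filtered with edgeR's filterByExpr by group, which left 16614 of 33861. All 21 libraries in 7 groups were fitted with edgeR 4.0.16 (R 4.3.3, limma 3.58.1; TMM scaling, robust quasi-likelihood test, 14 residual degrees of freedom), and AF was set against E6.0, AFX and the mean of the FS lines. P-values were adjusted over all genes tested with the Benjamini-Hochberg method, with a threshold of 0.05. CPM values are TMM-scaled. Where every library of a group had at most 3 counts, the fold is a bound against 3 counts in that group's libraries. The script was tested on simulated counts.

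The gene lists and comparisons were chosen with earlier results of these data known. Genes named by size were the 12 highest and 12 lowest fold changes past the threshold, without overlap and with a mean of 10 CPM or more where they were higher, and the 6 greatest CPM differences in each direction; predicted genes, pseudogenes and ribosomal RNA loci were left out, 2 among the higher and 9 among the lower by fold. Other names are list members. Alternatives were DESeq2 (1.42.0) size factors and Wald test, other filters, other sample sets, removal of ribosomal RNA loci and each of the 6 libraries left out in turn; for AF against AFX or FS, each AFX or FS library was also left out, and for AFX a passage block was fitted, both added after seeing the data. Promoters are RefSeq's (GRCm38.p6). Some sterol genes are counted in their list and not reported singly here.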

Additional observations from a re-analysis of the deposited data

Results flagged for a closer look

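For 13 of the 24 genes named for their fold change between AF cells and the epiblast, AF also differed from AFX, the other E14-named culture, in a direct edgeR test of AF minus AFX. Of all genes tested, 8.04% differed between AF and AFX. The named genes were chosen by their AF values and the AF libraries are the same in both comparisons, so nothing is read from this count.

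Of those that rose over the epiblast, the log2 fold change of AF minus AFX was 5.25 for Gbp2b, 5.03 for Emp1, 6.47 for Anxa1, 5.24 for Tnc, 3.21 for Capn6, 6.67 for Pga5 and 4.35 for Sfrp5, all higher in AF cells. Without AF passage 15 it was 1.82 for Capn6, whose call was lost (adjusted p = 0.245), 5.35 for Pga5 and 3.06 for Sfrp5. Without AFX passage 16 the other AFX libraries were under the floor for Pga5 and Anxa1, which were at least 85.2-fold and at least 57.2-fold higher in AF. The Capn6 call was also lost without AFX passage 14 or 15. Gbp2b, Emp1 and Anxa1 were tested through their AF counts, so their direction is only described.

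Of those that fell, it was -4.60 for Rnf17, -2.78 for Dppa4 and -2.33 for Ttbk1, and Sycp3 was at least 68.1-fold lower in AF than in AFX (38.4-fold without AFX passage 14). The Dppa4 call was lost without AF passage 14 or 15 or AFX passage 15 (adjusted p of 0.0639, 0.0955 and 0.0567), and without AF passage 16, where the other AF libraries were under the floor, Dppa4 was at least 9.66-fold lower. The Ttbk1 call was lost without AF passage 14, 15 or 16 (adjusted p of 0.0713, 0.0755 and 0.064) and without AFX passage 16 (log2 fold change -1.43, adjusted p = 0.21).

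Pmaip1 and Ap1m2 went the other way. Both were lower in AF cells than in the epiblast, and every AFX library had 3 counts or fewer, so that AF was at least 4.02-fold higher than AFX for Pmaip1 (2.45-fold without AF passage 14) and at least 4.99-fold higher for Ap1m2. The Pmaip1 call was lost without AF passage 14 or AFX passage 14 (adjusted p of 0.0535 and 0.0627). No explanation of these differences was tested.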

How the results depend on the processing

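The count of genes past the threshold between AF and E6.0 was 6156 and ran from 5841 with AF and E6.0 fitted alone to 6611 with the DESeq2 Wald test over the fits with all 6 libraries and the expression filter used here or none, and was 5214 at a mean of at least 5 CPM, where 11047 genes were tested and 553 were at least 2-fold lower. Leaving out 1 library gave 4680 (without passage 15) to 5645. The share of higher calls was 49.6% to 55.6%. The median log2 fold change of all genes was 0.0 without a filter and 0.12 with DESeq2 size factors. No paired analysis was possible because AF passages 14, 15 and 16 and embryos 1, 2 and 3 share no replicate number. AF and AFX share passage numbers, and a replicate block by passage and the removal of each AFX or FS library were added after seeing the data. Same-numbered AF and AFX libraries did not deviate together over 16614 genes (r of -0.12, -0.09 and 0.20), so the numbers were not taken as pairs. With the block AF minus AFX called 1273 genes against 1336, the Capn6 call was lost (adjusted p = 0.058) and Cer1 passed (adjusted p = 0.0451). The cause of the shifts below was not tested, except that filters change which members are tested.

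At a mean of at least 5 CPM the median was 2.38 for naive genes, -5.48 for germ cell genes (7 members past the threshold), 3.82 for visceral endoderm and 5.61 for protocadherins (5 members). Without a filter, members past the threshold were 17 for the streak, 13 for neural, 8 for extraembryonic ectoderm and 13 for Polycomb genes, and T, Mixl1, Lefty2, Nodal, Eomes, Fgf5 and Ddx3y passed. T also passed at a mean of at least 5 CPM (adjusted p = 0.0397). With AF and E6.0 alone, the median was 2.78 for neural, -4.40 for germ cell (11 members) and 1.85 for visceral endoderm genes, and 8 extraembryonic ectoderm genes passed. With the DESeq2 Wald test 0 Hox genes passed, and 2 did so in edgeR; at an unadjusted p under 0.05 the Wald test called 1 of them, Hoxd9. Leaving out 1 library put the log2 fold change of Eomes between -0.978 and 0.015 (without epiblast 2), against -0.48.

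Leaving out 1 library moved medians within these ranges: naive -0.07 (without epiblast 1) to 0.50 (without epiblast 3), formative -1.26 to -0.97, streak 1.52 to 3.56 (without epiblast 2), NODAL 0.20 to 0.36 (without passage 15), germ cell -5.11 to -3.47, visceral endoderm 0.14 (without passage 15) to 0.72, extraembryonic ectoderm 1.37 to 2.77 (without epiblast 2), feeder fibroblast 2.14 to 2.88, matrix 1.18 to 1.59, sterol 1.89 to 2.05, fatty acid 0.80 to 1.03, cell cycle -0.36 (without passage 16) to -0.17 and protocadherin 4.28 to 4.80. Members past the threshold ran from 6 to 9 for NODAL, 4 to 8 for neural, 2 to 6 for extraembryonic ectoderm, 20 to 30 for imprinted, 4 to 10 for sex-linked, 9 to 15 for ATF4, 8 to 15 for immediate early, 17 to 25 for nuclear oxidative phosphorylation and 33 to 52 for histone genes. The lowest counts came without passage 15 for imprinted, immediate early, nuclear oxidative phosphorylation and histone genes, without epiblast 3 for NODAL, neural and ATF4 genes, and without either for extraembryonic ectoderm. The 10 sex-linked genes came without epiblast 1, where Ddx3y passed. Between AF and AFX, leaving out 1 library gave 778 (without AFX passage 15) to 1287 genes, 374 to 689 higher and 404 to 598 lower, and 2 to 6 streak and 2 to 4 sterol genes. The streak count was 16 without a filter and 3 with FS as 1 group, and the sterol count 5 with the Wald test and 6 without a filter. Between AF and FS 3 to 9 sterol genes differed. Depth limits genes under 3 counts, or 0.260 to 0.394 CPM.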
